A study of Homo sapiens with 16 samples.

Results

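The centromeres described here are those of human chromosomes 1, 3, 5, 6, 7, 10, 12, 16 and 19, whose alpha satellite belongs to suprachromosomal family 1 (SF1). Peaks were taken from 9 lists of captured G-quadruplexes (G4s) when their midpoint lay in 1 of 9 fixed windows of the human genome hg38, namely chromosome 1 from 121.7 to 125.1 Mb, 3 from 90.5 to 94.0 Mb, 5 from 46.1 to 51.4 Mb, 6 from 58.5 to 62.6 Mb, 7 from 58.1 to 62.1 Mb, 10 from 38.0 to 41.6 Mb, 12 from 33.2 to 37.8 Mb, 16 from 35.3 to 38.4 Mb and 19 from 24.2 to 28.1 Mb. This rule used position only and found 6816 of 40118 listed peaks. The windows hold 33.9 Mb of known sequence, or 1.17% of the known bases of the 22 autosomes and X.

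All 9 lists came from HEK293T, a human embryonic kidney cell line, and from the antibody 1H6, which binds G4 DNA. In G4 DNA-IPnat, genomic DNA purified from untransduced cells was captured without denaturation, and in G4 DNA-IPdenat the same kind of DNA was heat-denatured first. G4-ChIP used fixed and sonicated chromatin of HEK293T cells. The other 6 lists came from AbC G4-ChIP, in which permeabilized cells are bathed in the antibody before lysis, of cells that carried a lentiviral shRNA, either non-targeting (CT) or against CGGBP1 (KD), a repeat-binding protein. CTnuc and KDnuc held no control DNA. For CTut and KDut, a G4-forming control DNA with a carrier DNA was folded, bound to the antibody and fixed, and then added to the lysate. The sample records give 500 ng for this step, whereas the methods give 1.25 µg of each DNA. For CTtr and KDtr 1.25 µg of each was transfected for 12 h. Reads came from an Ion Torrent S5 for CTnuc and KDnuc and from a MinION for the other 7 lists, and the first pair shares an input, as do both DNA-IPs. Each library was pooled by the authors from its replicates, so each list stands for 1 library, and p-values below measure the spread between lists. The lists carry no read counts. The study gives read totals for CTnuc, KDnuc, G4-ChIP and both DNA-IPs, which were not used here, and the depth behind a single peak is unknown.

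Alpha satellite is the tandem repeat on which the kinetochore is built. Its units differ from one another within a larger block, the higher-order repeat, and that block is copied head to tail over megabases with little change. In SF1 arrays units of an A type and a B type take turns, and many B units carry the CENP-B box, the binding site of the centromere protein CENP-B. The centromeric arrays of hg38 are model sequences built from reads of these repeats, so the position of a peak within an array is a position in that model.

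The label was checked against the sequence of the windows. The repeat unit came out at 171 bp, the lag at which most bases of the windows equalled the base further on. Tiles of 1 kb were called alpha satellite when at least 50% of their bases matched 1 unit on, and they made up from 41.2% of the known bases of the chromosome 6 window to 97.1% of that of chromosome 1. Within these tiles the match was closer 2 units on than 1 unit on in all 9 chromosomes, as an alternation of unit types gives. On chromosome 7 it was 67.4% after 1 unit, 83.3% after 2, 66.7% after 3 and 83.1% after 4, and it was highest, at 90.3%, after 6. The closest match came after 6 units also on chromosomes 1, 5, 10 and 19, after 8 on chromosome 12, after 10 on chromosome 16, after 17 on chromosome 3 and after 18 on chromosome 6. The alternation was weakest on chromosome 6, where the match was 69.8%, 75.4%, 72.1% and 72.4% after 1 to 4 units. On chromosome 3 the alternation did not last, and over lags of 1 to 20 units the mean match was 69.9% at even and 72.9% at odd numbers of units, the only 1 of the 9 chromosomes with odd above even.

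Arrays of the family also share sequence between chromosomes. Of the 150-base words in the window of chromosome 1, 68.8% were also found in the window of chromosome 5 and 68.8% in that of chromosome 19. Of those of chromosome 19, 71.1% were found on chromosome 5 and 60.2% on chromosome 1. Chromosome 16 shared 2.50% of its words with chromosome 1, and every pair of windows not among chromosomes 1, 5, 16 and 19 shared at most 0.213%. Words of 150 bases found at a single place in the genome made up 13.3% of the window of chromosome 1, 28.6% of that of chromosome 19 and 66.1% of that of chromosome 6. A read of that length from chromosomes 1, 5 or 19 can therefore often not be told apart from one of the other chromosomes of this trio.

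The units below are shown because they lie in regions that most lists covered. Each is 1 repeat unit of hg38 centred on a CENP-B box, printed 5′ to 3′ with the box in capitals, on the plus strand except that of chromosome 5, which is on the minus strand. Those of chromosomes 1 (chr1:121775554-121775724), 5 (chr5:46434487-46434657), 7 (chr7:58925553-58925723), 10 (chr10:40834889-40835059), 12 (chr12:35118662-35118832) and 19 (chr19:24959069-24959239) come from the region that the largest number of lists covered on each chromosome. That of chromosome 3 (chr3:92424786-92424956) comes from the KDtr peak of highest fold. The next unit of chromosome 10 (chr10:40835060-40835230) follows directly on the first and holds no box.
chromosome 1 unit: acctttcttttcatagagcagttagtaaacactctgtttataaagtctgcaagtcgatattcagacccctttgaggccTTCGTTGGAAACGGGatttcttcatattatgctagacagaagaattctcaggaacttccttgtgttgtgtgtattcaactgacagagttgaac
chromosome 19 unit: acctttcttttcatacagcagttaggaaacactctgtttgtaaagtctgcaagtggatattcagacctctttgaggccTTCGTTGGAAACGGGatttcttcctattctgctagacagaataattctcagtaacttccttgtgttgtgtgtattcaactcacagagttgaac
chromosome 3 unit: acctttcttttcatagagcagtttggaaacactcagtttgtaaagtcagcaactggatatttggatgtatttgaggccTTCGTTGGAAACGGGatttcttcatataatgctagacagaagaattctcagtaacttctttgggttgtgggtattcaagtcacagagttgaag
chromosome 7 unit: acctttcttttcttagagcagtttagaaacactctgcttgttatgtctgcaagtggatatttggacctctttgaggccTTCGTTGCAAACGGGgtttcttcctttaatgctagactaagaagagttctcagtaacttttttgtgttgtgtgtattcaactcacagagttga
chromosome 10 unit: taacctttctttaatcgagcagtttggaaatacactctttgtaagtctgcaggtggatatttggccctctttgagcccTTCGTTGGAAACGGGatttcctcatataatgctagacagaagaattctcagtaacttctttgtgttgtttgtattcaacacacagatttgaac
chromosome 10 next unit: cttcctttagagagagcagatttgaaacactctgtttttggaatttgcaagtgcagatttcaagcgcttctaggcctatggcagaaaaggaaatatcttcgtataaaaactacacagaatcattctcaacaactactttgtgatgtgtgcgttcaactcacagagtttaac
chromosome 12 unit: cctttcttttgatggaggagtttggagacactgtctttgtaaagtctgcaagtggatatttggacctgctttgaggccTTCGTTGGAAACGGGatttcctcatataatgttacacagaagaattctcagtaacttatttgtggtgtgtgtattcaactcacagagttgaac
chromosome 5 unit: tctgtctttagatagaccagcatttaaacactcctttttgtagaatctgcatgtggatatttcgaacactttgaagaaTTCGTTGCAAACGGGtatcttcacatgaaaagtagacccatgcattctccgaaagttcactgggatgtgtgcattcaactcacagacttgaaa

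The box units of chromosomes 1 and 19 were 94.2% identical over their alignment, and that of chromosome 3 was 87.7% identical to that of chromosome 1. Between the box unit of chromosome 10 and its neighbour without a box, identity was 68%. The unit of chromosome 5 stood apart, with 72.3% identity to that of chromosome 1. It lies near the edge of the array, in a region where 89.5% of the 150-base words occur at a single place in the genome. GC content was 39.2% in the units of chromosomes 1, 5 and 7, and the units held at most 3 GGG or CCC triplets each.

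The CENP-B box was searched on both strands as TTCGNNNNANNCGGG. Each box ends in GGG, or begins with CCC on the other strand, so the box overlaps the GGG and CCC triplets counted below and their contrasts are not independent of each other. It was present in 80.0% of the 1 kb alpha-satellite tiles of the SF1 windows, in 83.0% of those of other chromosomes and in 0.0309% of all other tiles of the genome. Of the members, 84.1% of those of G4 DNA-IPnat, 86.2% of those of G4 DNA-IPdenat, 83.2% of those of G4-ChIP, 93.6% of those of CTnuc and 94% of those of KDnuc held at least 1 box. The share was 88.2% in CTut, 86.8% in KDut, 86.2% in CTtr and 83.5% in KDtr. Peaks differ in length from a tile, so these shares are not on one scale.

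Most members lay in alpha satellite and away from genes. Alpha-satellite tiles held 25872733 of the 33922892 known bases of the windows, so a high share goes with the choice of windows. The intergenic share of the windows themselves was not computed. The midpoint fell in an alpha-satellite tile for 88.9% of the G4 DNA-IPnat members, for 89.5% of the G4 DNA-IPdenat members and for 93.5% of the G4-ChIP members, and for between 93% (KDtr) and 99.1% (KDnuc) of those in the AbC lists. All members of 8 lists were intergenic by GENCODE 44. The exceptions were 13 of the 1233 G4 DNA-IPdenat members, 12 in introns and 1 at an exon. Of 11 protein-coding genes in the windows, 2 held a peak. KHDRBS2, which codes for an RNA-binding protein, held 3 G4 DNA-IPdenat peaks, and PROS1, which codes for the anticoagulant protein S, held 2. The canonical signature of 4 or more runs of at least 3 guanines with loops of 1 to 7 bases was present in 8 members of G4 DNA-IPdenat, 3 of CTut, 1 of CTnuc and 1 of KDnuc, none of them with its midpoint in an alpha-satellite tile, and in no member of the other 5 lists. Median GC content of the members was between 38.8% and 39.2% in every list.

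The number of members differed widely between lists. Counts and shares of each list follow with 95% intervals by the Clopper-Pearson method, and these hold counting error alone. G4 DNA-IPnat had 63 members among 226 peaks, or 27.9% (22.1% to 34.2%). G4 DNA-IPdenat had 1233 among 15709, or 7.85% (7.43% to 8.28%), and G4-ChIP had 107 among 1455, or 7.35% (6.07% to 8.82%). G4 DNA-IPdenat thus had many more members but a smaller share of its list than G4 DNA-IPnat, and with a −log10 q of 4 or more the order of the shares turned, to 15.5% in G4 DNA-IPnat against 16.9% with denatured DNA. G4 DNA-IPnat and G4-ChIP were called with a narrower MACS2 bandwidth than G4 DNA-IPdenat and the AbC lists, so the treatment of the DNA and the calling cannot be told apart in these counts.

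Among the AbC lists, CTnuc had 1293 members among 3796 peaks, or 34.1% (32.6% to 35.6%), and KDnuc 1934 among 7753, or 24.9% (24% to 25.9%). CTut had 867 among 3496, or 24.8% (23.4% to 26.3%), and KDut 462 among 2927, or 15.8% (14.5% to 17.2%). CTtr had 458 among 2367, or 19.3% (17.8% to 21%), and KDtr 399 among 2389, or 16.7% (15.2% to 18.3%). All these shares are above the 1.17% of the genome in the windows, by 6.31 times in G4-ChIP to 29.2 times in CTnuc. By bases covered the share was lower in 8 lists, for instance 7.30% of the bases in CTtr and 3.90% of those in G4-ChIP. G4 DNA-IPdenat was the exception, with 8.27%. Members were shorter than the other peaks of the same list in every list except KDnuc. Median length was 980 bp against 1769 bp in G4 DNA-IPnat, 1069 bp against 1938 bp in CTtr and 998 bp against 886 bp in KDnuc.

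Fold enrichment over the input, as the peak caller gave it, was higher at members than at the other peaks of the list in 8 of 9 lists. Median fold was 5.84 at members against 4.99 at other peaks in CTnuc, 5.10 against 3.70 in CTut, 4.69 against 3.65 in CTtr and 5.59 against 4.62 in G4 DNA-IPdenat. G4 DNA-IPnat went the other way, with 5.39 against 6.05. When the lists were limited to a −log10 q of 4 or more, the share of members rose in 8 lists, to 20.7% in G4-ChIP and 47.4% in CTnuc for instance, and fell in G4 DNA-IPnat.

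Cover of alpha satellite was compared between the SF1 windows and other chromosomes, a measure that the choice of the windows did not use. In the SF1 windows, 0.249% of alpha-satellite bases lay in a peak of G4 DNA-IPnat, 9.04% in one of G4 DNA-IPdenat, 0.504% in one of G4-ChIP, 5.81% in CTnuc, 9.23% in KDnuc, 7.36% in CTut, 2.89% in KDut, 2.32% in CTtr and 1.92% in KDtr. On the other chromosomes the values in the same order were 0.162%, 3.83%, 0.243%, 2.06%, 3.47%, 4.66%, 1.71%, 1.26% and 1.02%. Cover was higher in the SF1 windows in 9 of 9 lists, by 2.32 ± 2.14 percentage points (SD, n = 9 lists, p = 0.0039, two-sided exact sign-flip permutation test), the smallest p that 9 lists can give. High cover was not confined to the family. Chromosome 4, outside it, was covered more than any SF1 chromosome in G4 DNA-IPnat (1.27%), G4 DNA-IPdenat (23.7%), G4-ChIP (2.30%), KDut (6.82%), CTtr (6.43%) and KDtr (5.65%). It was not in CTnuc (10.8%), KDnuc (15.0%) or CTut (12.2%).

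The difference depended on which chromosomes stood on the other side. Against chromosomes 11, 17 and X it was 3.61 ± 3.09 points, higher in 9 of 9 lists (adjusted p = 0.0059 over 3 classes, exact sign-flip permutation test). Against the acrocentric chromosomes 13, 14, 15, 21 and 22 it was 3.10 ± 2.68 points, also in 9 of 9 lists (adjusted p = 0.0059, exact sign-flip permutation test). Against chromosomes 2, 4, 8, 9, 18 and 20 the SF1 windows were higher in 5 of 9 lists, by 0.876 ± 1.47 points (adjusted p = 0.14, exact sign-flip permutation test), a comparison that depended on the settings. Without chromosomes 1, 5 and 19 the mean turned to −0.048 points, whereas the difference passed the test with a −log10 q of 4 or more (0.831 points, adjusted p = 0.043, exact sign-flip permutation test). It also passed with alpha-satellite limits of 40% and 60%, in 8 of 9 lists each, at 0.999 and 1.02 points (adjusted p = 0.0078 and 0.012, exact sign-flip permutation test). It did not pass without the 2 Ion Torrent lists, at 0.174 points and higher in 3 of 7 lists (adjusted p = 0.56, exact sign-flip permutation test). Chromosomes weighted equally, an alternative added after seeing the data, gave 0.412 points, higher in 2 of 9 lists (adjusted p = 0.5, exact sign-flip permutation test). For that class CTut gave 7.52% against 7.36% in the SF1 windows and KDut 2.93% against 2.89%, whereas CTnuc gave 2.92% against 5.81% and KDnuc 5.45% against 9.23%. The gap was thus widest in both Ion Torrent lists and in G4 DNA-IPdenat. Lists share a cell line and many covered places, and some share an input, so these p-values do not stand for separate cultures.

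**Figure D1:**
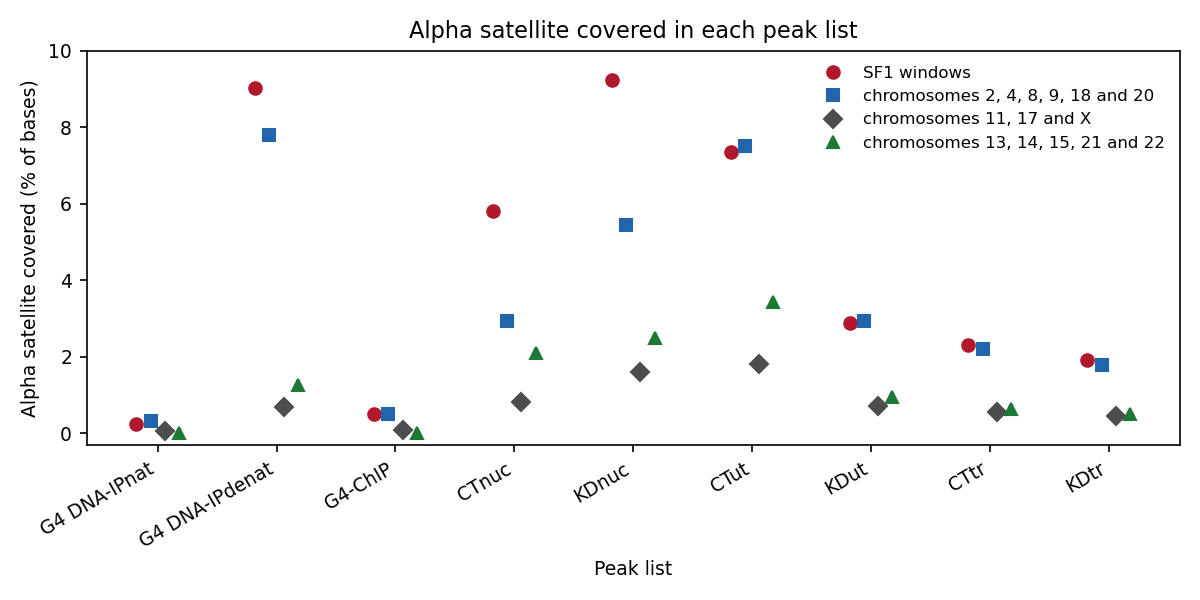
Percent of alpha-satellite bases that lie in a peak (vertical axis) in each of the 9 lists (horizontal axis), with a circle for the SF1 windows and other symbols for 3 classes of other chromosomes; each symbol is 1 library, without error. The circles lie above the diamonds and triangles in every list, and next to the squares in the ut and tr lists.

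The chromosomes of the family differed widely from each other. Over all lists, chromosome 1 held 1335 members, chromosome 5 held 1127, chromosome 19 held 1025 and chromosome 10 held 864. Chromosome 16 had the fewest, 221, and neither G4 DNA-IPnat nor G4-ChIP had a member there. A share of peaks can follow how much alpha satellite a window holds, so cover per alpha-satellite base is given next.

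Within the family, chromosomes 1 and 10 were covered most over several methods. Chromosome 10 had the highest cover of the 9 chromosomes in G4 DNA-IPnat (0.70%), G4-ChIP (1.67%), KDut (5.70%), CTtr (5.27%) and KDtr (4.95%). Chromosome 1 was highest in G4 DNA-IPdenat (17.9%) and CTnuc (11.9%), and chromosome 6 in KDnuc (18.8%) and CTut (15.6%). In CTnuc chromosome 10 followed closely on chromosome 1, with 10.9%. On chromosome 16 cover was 1.59% in G4 DNA-IPdenat, 0.829% in CTnuc, 3.62% in KDnuc, 2.83% in CTut, 0.252% in KDut, 0.150% in CTtr and 0.133% in KDtr.

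Chromosomes 3 and 7 changed places between the methods. Cover of chromosome 3 was 1.77% in CTnuc and 2.56% in KDnuc but 9.05% in CTut and 3.75% in KDut. Cover of chromosome 7 was 4.10% in CTnuc and 5.33% in KDnuc but 2.39% in CTut and 0.724% in KDut. The nuc lists thus had more of chromosome 7 than of chromosome 3, and the other 7 lists had the opposite order, with 6.59% on chromosome 3 and 1.38% on chromosome 7 in G4 DNA-IPdenat. G4 DNA-IPnat had 0.093% on chromosome 3 and 0.038% on chromosome 7, and G4-ChIP 0.388% and 0.135%. Both DNA-IPs and G4-ChIP are MinION lists without control DNA and were not made by AbC G4-ChIP. G4 DNA-IPnat had only 2 members on chromosome 3 and 3 on chromosome 7, and G4-ChIP had 9 and 6. The order was thus shared by the lists of each platform, but capture method, control DNA and list size differ between lists too. The nuc lists may also differ in the aligner, and the parts of these were not tested.

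**Figure D2:**
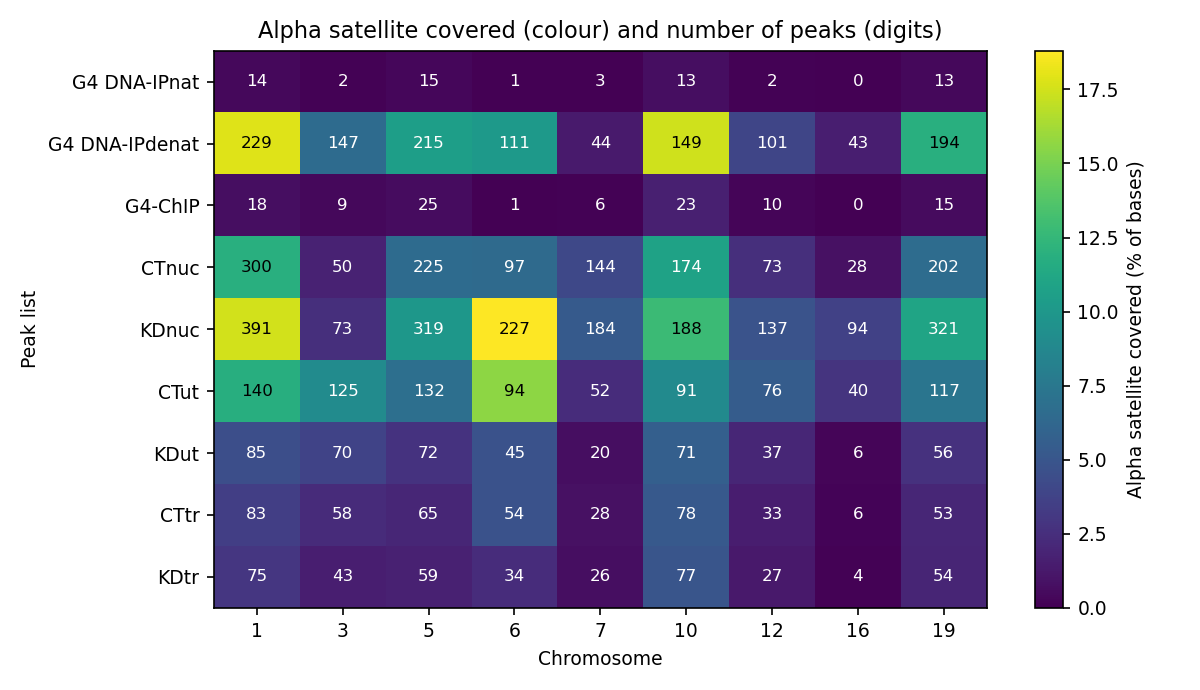
Each cell is 1 list (rows) on 1 chromosome (columns), with colour for the percent of its alpha-satellite bases in a peak and the digits for the number of peaks. Chromosomes 1 and 10 are bright in most lists of many peaks, chromosome 16 is dark throughout, and chromosomes 3 and 7 swap between the nuc and the ut lists.

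Cover was uneven along each array. Arrays were taken from the first to the last alpha-satellite tile of a window and cut into 10 equal bins from the short-arm to the long-arm side. On chromosome 10 the sixth bin was covered by 34.3% in G4 DNA-IPdenat, 26.7% in CTnuc, 27.2% in KDnuc, 24% in CTut, 18.6% in KDut, 16.3% in CTtr, 15.7% in KDtr and 5.8% in G4-ChIP, the highest bin of the array in each. G4 DNA-IPnat differed, with 0.88% in the sixth bin and 2.4% in the fifth and in the seventh. The first bin of that array was at 0.0 in all 9 lists.

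On chromosome 12 the ut and tr lists put most of their cover in bins 2, 3 and 4, with 15.6%, 14.5% and 13.0% in CTut and 5.3%, 4.2% and 3.2% in CTtr. On chromosome 6 the AbC lists had cover in the first 6 bins and 0.0 in the last 4, where G4 DNA-IPdenat had 3.1%, 1.6%, 3.1% and 1.4%. Chromosome 6 has the smallest share of alpha satellite of the 9 windows. Its array spans 2.97 Mb, but the window holds 1498 alpha-satellite tiles of 1 kb, so the bins also hold other sequence. Outside these tiles cover in the window was at most 0.0005% in the AbC lists and 1.91% in G4 DNA-IPdenat. On chromosome 7 the nuc lists covered the first 7 bins at between 4.3% and 6.5% in CTnuc and 5.6% and 8.5% in KDnuc, with at most 0.3% beyond them. The eighth bin of that array, at 0.0 in both nuc lists, was the highest in G4 DNA-IPdenat (6.9%), CTut (6.2%), KDut (1.9%), CTtr (2.1%) and KDtr (2.2%).

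**Figure D3:**
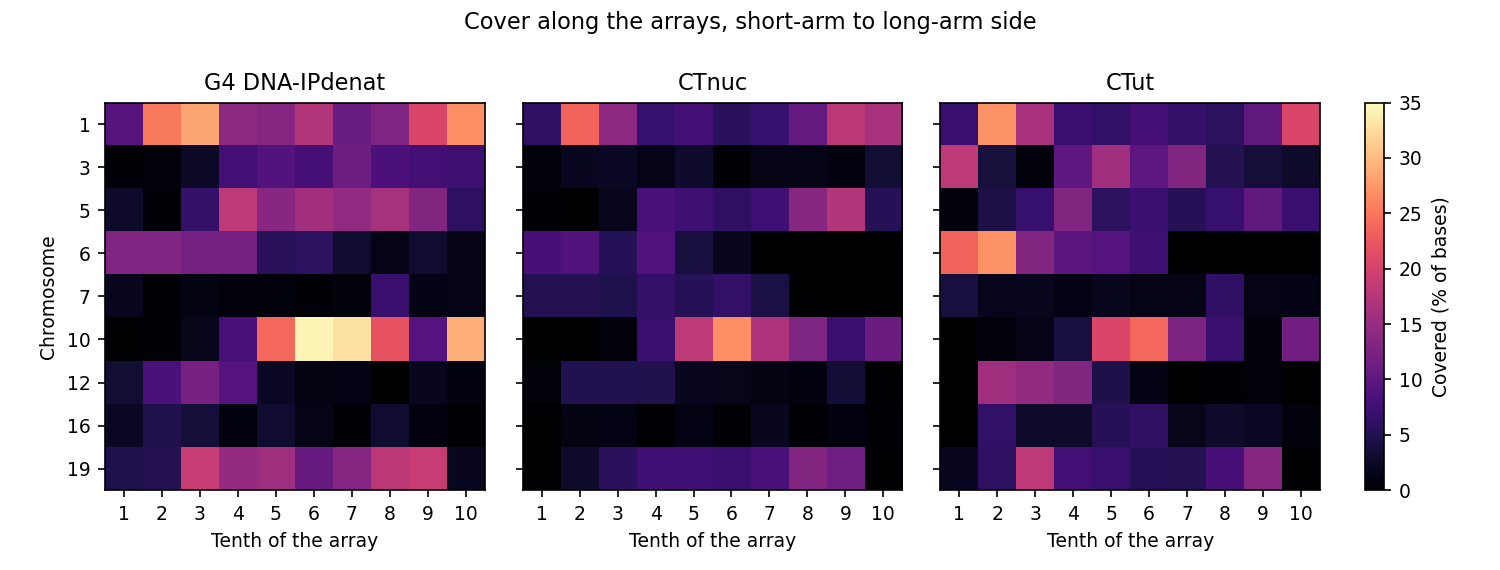
Percent of bases covered in each of 10 equal bins of the array (horizontal axis, short-arm to long-arm side) of each chromosome (vertical axis) in G4 DNA-IPdenat, CTnuc and CTut, 1 library each. The middle of the chromosome 10 array and the second bin of chromosome 1 are bright in all 3 panels, and the eighth bin of chromosome 7 stands at 6.9%, 0.0% and 6.2% from left to right.

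The sequence of covered alpha satellite was compared with that of uncovered alpha satellite in the same windows. A tile counted as covered when at least 50% of it lay in a peak. The 2 sets differed little in composition and much in how often their sequence recurs. Covered tiles had more CENP-B boxes in 9 of 9 lists, by 0.35 ± 0.12 per kb (SD, n = 9 lists, adjusted p = 0.0078 over 4 features, exact sign-flip permutation test). In G4 DNA-IPnat covered tiles held 2.44 boxes per kb against 1.96 in uncovered ones, in CTnuc 2.37 against 1.93, in KDnuc 2.36 against 1.92 and in CTut 2.13 against 1.95. The lists cover partly the same places, with 97.2% of KDut members overlapping a CTut peak for instance. Their 9 values are therefore not independent, here and in the contrasts of sequence below.

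Words of 150 bases found at a single place in the genome were fewer in covered tiles in 9 of 9 lists, by 11.4 ± 2.60 percentage points (adjusted p = 0.0078, exact sign-flip permutation test). They made up 7.60% of the words of covered and 24.5% of those of uncovered tiles with G4 DNA-IPnat, 14.1% and 25.5% with denatured DNA, 13.2% and 25.2% in CTnuc, and 16.5% and 25.1% in CTut. Over the windows together, peaks thus lay where copies of the repeat are more alike, while the study kept uniquely aligned reads alone. The part of alignment in this difference was not tested.

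GC content was higher in covered tiles in 8 of 9 lists, by 0.258 ± 0.232 percentage points (adjusted p = 0.0078, exact sign-flip permutation test). GGG and CCC triplets, the building blocks of canonical quadruplexes, were fewer in covered tiles in 8 of 9 lists, by 0.47 ± 0.49 per kb (adjusted p = 0.0078, exact sign-flip permutation test). Covered tiles held 6.05 per kb against 7.62 in uncovered ones in G4 DNA-IPnat, 6.74 against 7.62 in G4-ChIP, 7.49 against 7.63 in CTnuc and 7.62 against 7.62 in KDnuc. With a −log10 q of 4 or more the triplet difference was −0.68 per kb (adjusted p = 0.0052, exact sign-flip permutation test). It did not pass under 2 of the other settings. The difference in the 6 AbC lists alone was −0.24 per kb (adjusted p = 0.062, exact sign-flip permutation test), and it was −0.26 per kb (adjusted p = 0.16, exact sign-flip permutation test) with a stricter limit of 60% for alpha satellite.

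Chromosomes differed in these contrasts. Within chromosomes 5, 10 and 19, covered tiles had more boxes in 9 of 9 lists, with means of 0.61, 0.53 and 0.73 per kb, and on chromosome 12 in 8 of 8 lists with at least 5 covered tiles, with a mean of 0.52. On chromosomes 1, 3, 7 and 16 the means were 0.056, 0.018, 0.00090 and 0.050 per kb and the lists did not point one way. Unique words were fewer in covered tiles in all such lists of chromosomes 5, 10, 12 and 19, by means of 12.3, 21.2, 21.6 and 15.8 points, and were more in 6 of 8 lists on chromosome 7. On chromosome 1, which holds the most members, the mean was −0.96 points and covered tiles had more unique words in 3 of 9 lists. They had more in 2 of 5 lists on chromosome 16, in 1 of 8 on chromosome 3 and in 1 of 7 on chromosome 6. Taken within each chromosome and then averaged, a comparison added after seeing the data, covered minus uncovered was 0.35 per kb for boxes, −0.73 per kb for triplets and −10.3 points for unique words (adjusted p = 0.0052 for each over 9 lists, exact sign-flip permutation test).

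**Figure D4:**
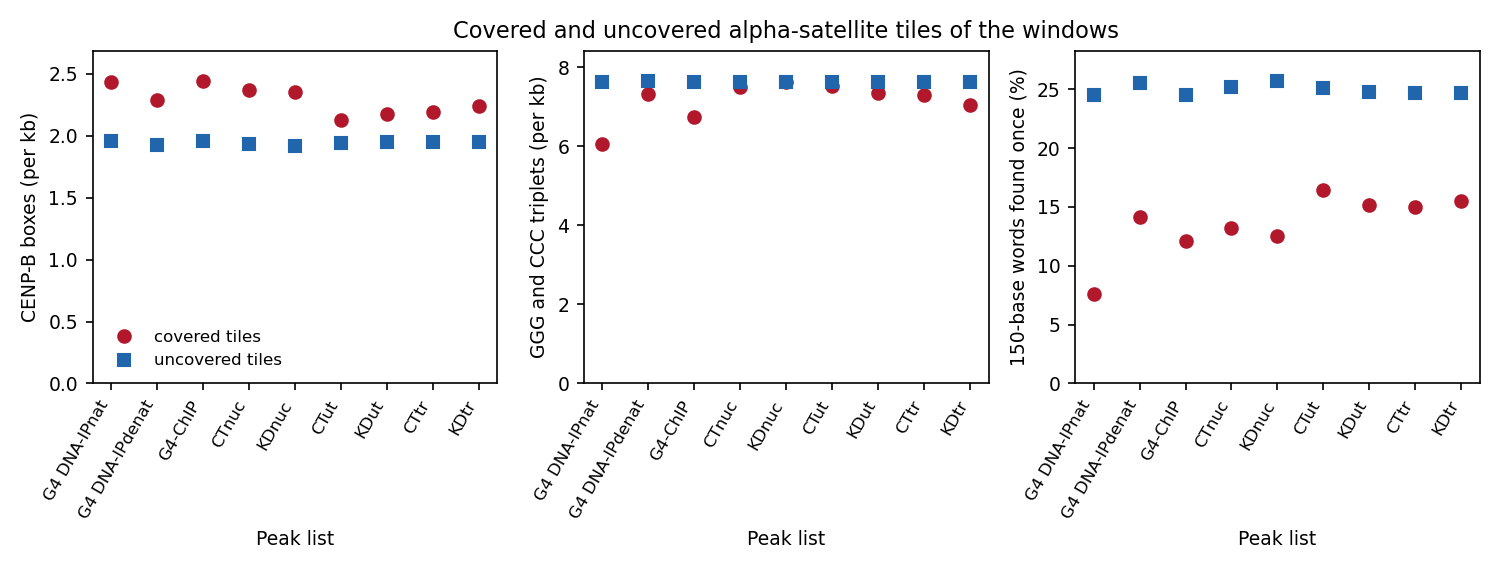
CENP-B boxes per kb, GGG and CCC triplets per kb and percent of 150-base words found at a single place in the genome (vertical axes) in covered (circles) and uncovered (squares) alpha-satellite tiles of the SF1 windows, by list (horizontal axes), 1 library each without error. Circles lie above squares for boxes and below them for unique words in all 9 lists.

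Lists overlapped more inside the windows than over their whole length in some comparisons and not in others. An overlap of at least 1 bp was counted. Of the 63 members in G4 DNA-IPnat, 62 (98.4%, 95% interval 91.5% to 100%) met at least 1 peak of G4 DNA-IPdenat, against a background of 92.0% over the whole list, and 4.79% of G4 DNA-IPdenat members overlapped a G4 DNA-IPnat peak, against 1.25% of that list. Of the G4-ChIP members, 40.2% (30.8% to 50.1%) overlapped a G4 DNA-IPnat peak, against 10.8% over the whole list, but in the other direction members lay below the whole list, with 68.3% of G4 DNA-IPnat members overlapping a G4-ChIP peak against 73.9%. Of the G4-ChIP members, 60.7% (50.8% to 70.0%) also overlapped CTnuc, against 24.3% over the whole list, whereas 5.65% of CTnuc members overlapped G4-ChIP against 13.4% of all CTnuc peaks. Peaks were also denser inside the windows in every list, and the part of this density in the overlap was not tested.

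CTnuc members overlapped G4 DNA-IPdenat in 46.1% of cases (43.4% to 48.9%), against 29.1% over the whole list, and 36.9% of G4 DNA-IPdenat members overlapped CTnuc, against 5.46%. Of the CTnuc members 77.2% (74.8% to 79.4%) overlapped KDnuc, close to the background of 72.0%, and 50.3% of KDnuc members overlapped CTnuc, against 33.7%. Of the CTtr members 72.1% (67.7% to 76.1%) overlapped KDtr, against 68.9%, and 83.0% of KDtr members overlapped CTtr, against 73.1%. Of the CTut members 49.3% (45.9% to 52.6%) overlapped KDut, below the background of 54.9%, whereas 97.2% of KDut members overlapped CTut, above the background of 62.6%. KDut members were thus nearly all within the larger CTut set.

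Little of the windows was covered in many lists. Of their length, 85.0% lay in no peak of any list, 8.01% in 1 list and 3.4% in 2 lists, and 19976 bp lay in peaks of all 9. The region covered by all 9 lists on chromosome 10, chr10:40833966-40835831, was the longest of those named, at 1866 bp, and held 4 CENP-B boxes. The fold of the peak there was 5.13 for G4 DNA-IPnat, 5.45 for G4-ChIP, 6.61 in the denatured DNA-IP, 5.56 in CTnuc, 5.68 in KDnuc, 10.9 in CTut, 9.18 in KDut, 6.34 in CTtr and 7.49 in KDtr. The ut lists were highest at this region, and no list fell below a fold of 5.

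Chromosomes 1 (chr1:121775057-121776202), 3 (chr3:90868406-90869737), 5 (chr5:46433734-46434885), 12 (chr12:35118183-35119397) and 19 (chr19:24958900-24959501) each also had a region in all 9 lists. Their folds ran from 6.21 to 14.0 on chromosome 1, from 6.21 to 14.1 on chromosome 3, from 5.36 to 13.3 on chromosome 5, from 4.79 to 9.16 on chromosome 12 and from 6.85 to 13.9 on chromosome 19. On chromosome 7 the most lists were 8 (chr7:58925282-58925839, all but G4 DNA-IPnat), on chromosome 6 also 8 (chr6:58765375-58765397, all but CTnuc) and on chromosome 16 there were 6 (chr16:37001488-37001586). All these regions were intergenic alpha satellite, and those of chromosomes 3, 6 and 16 held no CENP-B box.

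The peaks of highest fold were not all alpha satellite. In G4 DNA-IPnat it was chr5:49656293-49656655 with a fold of 8.27, and in G4-ChIP chr5:49656289-49661857 with a fold of 14.4, which contains the former. This stretch lies outside the alpha-satellite tiles and is made of the pentamer attcc, the unit of classical satellites. KDnuc had a peak of fold 15.9 there, KDut 10.5 and CTut 8.46, and G4 DNA-IPdenat had none there. CTnuc had a peak of fold 12.1 that met the longer G4-ChIP peak but not the G4 DNA-IPnat peak. Its middle (chr5:49656374-49656573, plus strand) is shown with each run of at least 3 guanines in capitals, because it shows a peak shared by G4 DNA-IPnat and G4-ChIP that no CENP-B box marks.
chromosome 5 G4 DNA-IPnat peak: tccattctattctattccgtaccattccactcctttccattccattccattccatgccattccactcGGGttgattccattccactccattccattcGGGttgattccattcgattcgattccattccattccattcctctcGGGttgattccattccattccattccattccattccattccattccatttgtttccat

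Peaks with over 10% of their bases in this pentamer were few among the members, with 21 among those of G4 DNA-IPdenat, 6 each among those of G4-ChIP and G4 DNA-IPnat, and between 5 (KDnuc) and 26 (CTut) in the AbC lists. The peak of highest fold in KDnuc, chr5:49630967-49631583, had a fold of 37.0, with 4.98 in G4 DNA-IPdenat, 3.60 in CTut and no peak in the other 6 lists. That of CTnuc, chr3:93470010-93470860, had a fold of 26.8 and no overlapping peak in any other list, and part of its length is unknown sequence in hg38. Both lie outside the tiles called alpha satellite, yet the KDnuc peak holds 2 CENP-B boxes and the CTnuc peak 1, a motif found in 0.0309% of such tiles. The highest peak of CTut and of KDtr was one region of chromosome 3, chr3:92424086-92425838 and chr3:92424146-92425573, with folds of 18.6 and 16.2 and 4 CENP-B boxes, and G4 DNA-IPdenat had a fold of 19.4 there, KDut 12.1 and CTtr 9.92. The highest of KDut was chr3:90868078-90870209 (14.1), that of CTtr chr19:26023756-26024676 (12.7) and that of G4 DNA-IPdenat chr19:27146266-27147350 (20.9), all 3 in alpha satellite.

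KD was compared with CT within the nuc, ut and tr pairs, the question of the study being what loss of CGGBP1 does to G4 formation. The share of listed peaks in the SF1 windows was lower in KD in 3 of 3 pairs, from 34.1% to 24.9% (nuc), from 24.8% to 15.8% (ut) and from 19.3% to 16.7% (tr). The mean change was −6.93 ± 3.71 percentage points (SD, n = 3 pairs, p = 0.25, two-sided exact sign-flip permutation test), where 0.25 is the smallest p that 3 pairs allow. With the labels exchanged freely over the 6 lists it was p = 0.3 by an exact permutation test. When the same number of peaks, 2367 of highest −log10 q, was taken from each list, an alternative added after seeing the data, the changes were 2.41, −15.2 and −2.49 points, so that the nuc pair turned. As a share of covered bases the changes were −5.22, −9.55 and 0.0484 points, so that the tr pair was no longer lower (p = 0.5, exact sign-flip permutation test).

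Cover did not move one way. In the nuc pair the windows were covered over 1548 kb in CT and 2427 kb in KD, in the ut pair over 2022 kb and 792 kb, and in the tr pair over 638 kb and 547 kb. The mean change was −147 ± 1056 kb (p = 0.75, exact sign-flip permutation test over 3 pairs), less than the spread between pairs, and without the ut pair it was 394 kb. Median fold of the members went from 5.84 to 5.37 in the nuc pair, from 5.10 to 5.05 in the ut pair and from 4.69 to 5.33 in the tr pair (mean 0.0433, p = 1, exact sign-flip permutation test).

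The opposite directions of the nuc and ut pairs were shared by all chromosomes, but the whole lists changed as well. The windows held 29.1% of the covered bases in CTnuc and 23.9% in KDnuc, so the rest of that list grew by a larger factor. They held 16.6% in CTut and 7.00% in KDut, so the rest of the list did not fall in proportion. In the tr pair the shares were 7.30% and 7.34%. KD covered more than CT on 9 of 9 chromosomes in the nuc pair and less on 9 of 9 in the ut pair, and less on 8 of 9 in the tr pair, where chromosome 10 was 1.03 times the CT value. In the nuc pair cover in KD was 1.17 times that in CT on chromosome 10, 2.88 times on chromosome 6 and 3.32 times on chromosome 16. In the ut pair it was 0.589 times on chromosome 10, 0.304 times on chromosome 6 and 0.111 times on chromosome 16. By this ratio chromosome 10 changed least and chromosome 16 most in the nuc and ut pairs, whereas in the tr pair chromosome 19 changed least, at 0.987 times, and chromosome 6 most, at 0.496 times.

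**Figure D5:**
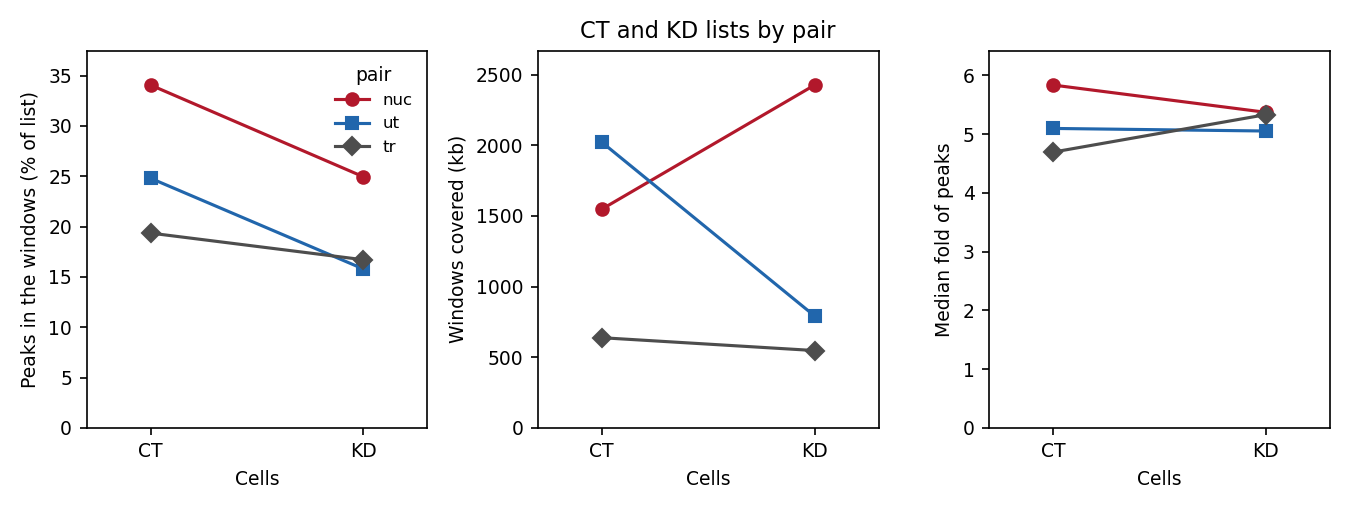
Share of listed peaks that lie in the SF1 windows, kb of the windows covered and median fold of the peaks there (vertical axes) in the CT and KD list of each pair, joined by a line; each symbol is 1 library. All lines fall in the first panel, whereas in the second the nuc line rises from 1548 to 2427 kb and the ut line falls from 2022 to 792 kb.

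Almost no sequence of the windows separated all KD from all CT lists. Of 24427 tiles of 1 kb covered in any AbC list over the genome, 0.364% were covered in all 3 KD lists and in no CT list and 0.156% in all 3 CT lists and in no KD list. In the SF1 windows 4176 tiles were covered in any AbC list, of which 1 was in all KD lists alone (0.0239%) and 6 in all CT lists alone (0.144%). The CT share was near its background, and the KD share was below it, but the call rests on 1 and 6 tiles.

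By single bases, 1 region of 63 bp on chromosome 6 was covered in all KD lists and in no CT list. This region, chr6:58793458-58793520, had folds of 7.00 in KDnuc, 4.68 in KDut and 4.13 in KDtr, and no peak in the other 6 lists. It is shown whole, on the plus strand, as the only such region.
chromosome 6 KD-only region: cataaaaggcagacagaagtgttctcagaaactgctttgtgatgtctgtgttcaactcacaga

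It is intergenic alpha satellite without a CENP-B box, and all 150-base words that start in it and run on into its flank occur at a single place in the genome. In the other direction, 31 regions with 6698 bp in all were covered in all CT lists and in no KD list. Regions by single bases were not counted over the genome, so these numbers have no background beside them. By tiles of 1 kb the genome had the opposite order, with 89 in all KD lists alone and 38 in all CT lists alone. The 5 longest of the 31 regions were chr6:59518247-59519075 (829 bp), chr5:47499497-47500250 (754 bp), chr12:35337414-35338068 (655 bp), chr5:49367954-49368594 (641 bp) and chr19:26967458-26968050 (593 bp). All 5 are intergenic alpha satellite with 1 or 2 CENP-B boxes each, and G4 DNA-IPdenat had a peak at each of them, with folds from 4.07 to 9.93. At the longest, fold was 4.89 in CTnuc, 4.84 in CTut and 3.45 in CTtr.

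Regions covered in all 6 AbC lists numbered 164, with 151102 bp in all. Of these, 56 lay on chromosome 10, 33 on chromosome 1, 24 on chromosome 5, 19 on chromosome 19 and none on chromosome 16. Median fold at these regions was 6.10 in CTnuc and 5.96 in KDnuc, 7.39 in CTut and 5.76 in KDut, and 5.34 in CTtr and 5.78 in KDtr. KD had the higher fold at 66 of the 164 regions in the nuc pair, at 25 in the ut pair and at 120 in the tr pair. The pairs thus differed in the direction of the fold at the same places, the ut pair most clearly against the tr pair. The direction was not particular to these regions. Median fold of the peaks outside the windows went from 4.99 to 4.56 in the nuc pair, from 3.70 to 3.63 in the ut pair and from 3.65 to 4.12 in the tr pair. Regions in all 6 AbC lists elsewhere in the genome were not counted. The fold at a region is the highest of the whole peaks that overlap it, so a peak that spans several regions is counted at each. The counts and medians therefore hold some peaks more than once. Regions on the same array also share sequence and are not replicates, and no test was made of this.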

How the data were processed

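Broad peak lists of 9 libraries were used. The authors aligned reads to hg38 and called peaks against the input with MACS2; the methods and the submitters' processing notes name minimap2, and uniquely aligned reads were kept. The study's summaries of CTnuc and KDnuc name bowtie2 instead, so the aligner of the nuc lists is uncertain. Per the methods, the AbC lists and G4 DNA-IPdenat were called with a wider bandwidth and no local background, whereas G4-ChIP and G4 DNA-IPnat had the default bandwidth, so levels between these sets also differ in calling. The fold enrichment of each peak is the ratio over input deposited by the authors. The p-value and q-value of each peak are deposited by the authors on the −log10 scale, and the score is the authors' MACS2 score and was not used. The lists hold no depth per peak, and the read totals that the study gives for part of the libraries were not used here. Peak numbers in CTnuc run to 10757 for 3796 listed peaks and in KDnuc to 22266 for 7753, so these lists hold part of the numbered peaks.

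The windows, lists and tests were chosen with earlier results of these data known. The genome was cut into tiles of 1 kb, and a tile was alpha satellite when at least 50% of its bases matched 1 unit on (best lag within 4 bases, per 50 bases), fewer than 50% matched at the midpoint lag of a unit, and at least 50% of the tiles up to 10 to each side passed too. Words of 150 bases were counted over the genome on both strands. Lists were compared by exact sign-flip permutation tests, with Benjamini-Hochberg adjustment where classes or features were compared. KD and CT were paired by nuc, ut and tr; the members' distribution over the 9 chromosomes deviated together within pairs (r = 0.64, 0.59 and 0.68), so the pairing was kept. Named regions were the peak of highest fold per list, the region in most lists per chromosome, and the 5 longest regions in all lists of KD or CT alone. Named genes were protein-coding genes holding a peak. Alternatives were a −log10 q of at least 4, other window, overlap, tile, k-mer and alpha-satellite rules, and leaving out lists, pairs or chromosomes 1, 5 and 19. The functions were tested on simulated data. Genes came from GENCODE 44, and the tools were Python 3.11.15 with pysam 0.24.0, numba 0.67.0, Biopython 1.88, scipy 1.17.1, matplotlib 3.10.9, pandas 2.3.3 and numpy 2.4.6. Reads and signal tracks were not used here.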

Additional observations from a re-analysis of the deposited data

Results flagged for a closer look

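The nuc pair moved one way and the ut and tr pairs the other in 3 measures of the SF1 peaks, a difference between pairs that was not tested. Covered length changed by 879 kb from CT to KD in the nuc pair, by −1230 kb in the ut pair and by −91.0 kb in the tr pair. The number of peaks changed by 641, −405 and −59 in the same order. Median peak length changed by 55 bp, −378.5 bp and −113 bp. Each value rests on 1 library per list, and sequencing platform, control DNA and whole-list size differ together between the nuc pair and the others, so their parts cannot be told apart.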

How the results depend on the processing

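Of 150 values recomputed under other settings, 109 kept their direction and side of the threshold or moved less than their error, 33 moved further, 3 became significant, 2 lost significance and 3 reversed. Part of the 109 could not have come out otherwise. No peak crossed a window edge, so counting any overlap with a window returned the main values. The tests of KD minus CT cannot reach 0.05 with 3 pairs, so there only the sign could change. With a −log10 q of at least 4 the SF1 share was 15.5% for G4 DNA-IPnat, 16.9% for G4 DNA-IPdenat, 20.7% for G4-ChIP, 47.4% in CTnuc, 45.1% in KDnuc, 34.2% in CTut, 32.1% in KDut, 37.1% in CTtr and 28.3% in KDtr. As a share of covered bases it was 11.3% in G4 DNA-IPnat, 3.90% in G4-ChIP, 29.1% in CTnuc, 23.9% in KDnuc, 16.6% in CTut, 7.00% in KDut, 7.30% in CTtr and 7.34% in KDtr. Overlaps with a −log10 q of at least 4 were 26% for G4-ChIP with G4 DNA-IPnat, 72.8% for CTnuc with KDnuc, 78.2% for CTtr with KDtr and 35.9% for CTnuc with G4 DNA-IPdenat. With 50% of the peak's length required they were 70.4% for CTnuc with KDnuc, 36.1% for CTut with KDut, 67.7% for CTtr with KDtr and 37.7% for CTnuc with G4 DNA-IPdenat. The shares of members at a −log10 q of at least 4 were 20.8%, 7.27%, 18.8%, 5.81%, 8.14%, 6.62%, 2.25% and 17% on chromosomes 1, 3, 5, 6, 7, 12, 16 and 19. Cover against chromosomes 2, 4, 8, 9, 18 and 20 differed by 0.831 points at that limit (adjusted p = 0.043, exact permutation test), by 0.999 and 1.02 points with alpha-satellite limits of 40% and 60% (adjusted p = 0.0078 and 0.012, exact permutation test), and by −0.0479 points without chromosomes 1, 5 and 19. The triplet difference was −0.263 per kb at the 60% limit and −0.244 per kb in the 6 AbC lists, with adjusted p = 0.164 and 0.0625 by exact permutation tests. Leaving out 1 pair at a time, KD minus CT ranged from −9.07 to −5.83 points for the share, from −661 to 394 kb for cover and from −0.25 to 0.30 for median fold, with the sign of cover turning without the ut pair and that of fold without the tr pair. The causes were not tested. Without the replicate block of nuc, ut and tr pairing, the mean changes of −6.93 points, −147 kb and 0.0433 had p = 0.3, 0.9 and 1 by exact permutation tests. No call could change here. The smallest p these permutation tests allow is 0.1 without the pairing and 0.25 with it, both above 0.05. The lists hold no depth per peak, and each list is 1 library.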
